A study of Mus musculus with 4 samples.

Results

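The genes described here are 42 genes of the cellular defence against oxidants: the NRF2 regulators, the enzymes that make and use glutathione, the thioredoxin and peroxiredoxin systems, superoxide dismutases and catalase, the pentose phosphate enzymes and the ferritin chains. They were chosen by name, through the RefSeq accession of their probes, and not by how they differed between samples. Each was read from its brightest probe, and 40 of the 42 were kept because 1 of the populations, or each of them, had a signal well above background on its pair of arrays, a requirement that 11955 genes met in all. The 40 genes were well above background on all 4 arrays.

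The samples were B16-F10 cells, a metastatic melanoma line of the mouse, sorted by flow cytometry into Met-low and Met-high cells according to the amount of the Met receptor on the surface. Both populations came from the same parental line, the labels give no further treatment or transgene for either, and they were grown separately for 3 days after the sort before total RNA was taken. Each population was represented by 2 independently prepared RNA samples, labelled with Cy3 and hybridised to 1 array each. Both are therefore parts of 1 established line, seen after a renewed culture and not directly after the sort.

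Oxidants arise as by-products of respiration and, in pigment cells, of melanin synthesis. The transcription factor NRF2, encoded by *Nfe2l2*, is held in the cytoplasm and marked for degradation by *Keap1* until oxidants or electrophiles modify the latter. NRF2 then binds antioxidant response elements and switches on genes for glutathione synthesis, thioredoxin recycling and NADPH supply. Glutathione and thioredoxin are the electron donors of the peroxidases, and the pentose phosphate pathway delivers NADPH to recharge both. The comparison asked whether this defence differed between melanoma cells with little and with much Met.

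The 300 bases around each RefSeq start site of the mouse assembly GRCm38.p6 (250 before it and 50 from it on) were searched on both strands. The search was for the core letters of elements that regulators of these genes can bind. A match of the letters does not show binding, which was not tested. Start regions were at hand for 36 of the 42 genes. The core of the antioxidant response element, TGACNNNGC, occurred in 10 of these 36 genes, or 27.8%, against 14.0% of 27025 genes with such a region. The 10 genes were *Nfe2l2*, *Srxn1*, *Gstm5*, *Gclm*, *Prdx1*, *Pgd*, *Mgst1*, *Txnrd1*, *Sod1* and *G6pdx*. Those of the regulator itself and of 4 genes that are standard NRF2 targets are printed because the results below compare their levels. Capitals mark the core, and each is written on the strand that reads TGACNNNGC.
Nfe2l2, chr2:75704885-75704913, minus strand: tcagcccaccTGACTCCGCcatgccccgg
Gclm, chr3:122245413-122245441, minus strand: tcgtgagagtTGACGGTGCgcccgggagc
Prdx1, chr4:116685456-116685484, minus strand: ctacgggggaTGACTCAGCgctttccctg
Txnrd1, chr10:82859104-82859132, minus strand: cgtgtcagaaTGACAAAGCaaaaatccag
G6pdx, chrX:74428919-74428947, plus strand: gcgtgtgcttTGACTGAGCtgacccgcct

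*Slc7a11* held no such core in its start region. Of the 36 genes, it alone held the core of the amino acid response element, TGATGNAA, which binds ATF4 and its partners and occurred in 4.51% of all genes with a region. *Slc7a11* held it as a pair in opposite orientation, from 66 to 59 and from 47 to 40 bases before the start site, with TGATGCAA as the letters of both. The stretch is printed on the strand of the gene because *Slc7a11* is among the genes with the widest gap between the populations, and capitals mark the pair.
Slc7a11, chr3:50443637-50443695, minus strand: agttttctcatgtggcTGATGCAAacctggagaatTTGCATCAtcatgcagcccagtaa

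Signals are given as log2 of the background-corrected intensity relative to the 75th percentile of the array, so that 0 is the level of that percentile, and ratios as the log2 signal in Met-high minus that in Met-low cells, with its standard error (SE). The 4 arrays lay on 1 slide, where the Met-low pair held positions 1 and 2 and the Met-high pair positions 3 and 4, so that position and population cannot be told apart. At most 53.6% of the spots on an array were well above background, and 0 were saturated. All 10 marker genes of melanocytes and melanoma, among them *Tyr*, *Dct*, *Pmel* and *Mlana*, were well above background on every array. Some markers of other cells were well above background on all arrays too. Of those with a probe, they were 3 of 7 leukocyte (*Csf1r*, *Itgam* and *Cd3e*), 1 of 7 fibroblast (*Col1a2*), 1 of 5 endothelial (*Kdr*) and 1 of 6 keratinocyte genes (*Trp63*). *Ptprc*, *Cdh5* and *Dcn* were among those above background on none. *Met* itself had a signal of -0.26 and -0.89 in Met-low and of 1.03 and -0.43 in Met-high cells, with overlap between the populations. Its log2 ratio was 0.87 (SE 0.51, limma adjusted p = 0.33), and with an array left out it ran from 0.14 without Met-high replicate 1 to 1.61 without Met-high replicate 2.

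As a whole the redox genes differed little between the populations. The median log2 ratio of the 40 genes was 0.10, beside 0.10 for all 11955 genes, and 20 of the 40 lay above the median of all genes. A ratio within 0.5 of 0 on the log2 scale was found for 31 genes and a ratio within 1 for 38. Limma with Benjamini-Hochberg adjustment over all genes called 1 of the 40 higher in Met-low cells (*Sod3*), where 3.82% of all genes were called, and 0 higher in Met-high cells, where 1.95% were. At an unadjusted p under 0.05 there were 4 genes in each direction, beside 11.9% of all genes on the Met-low and 14.3% on the Met-high side. A 2-fold difference of the means was exceeded toward Met-low cells by 2 genes, *Sod3* and *Slc7a11*, beside 5.29% of all genes, and toward Met-high cells by 0, beside 2.43%. These shares lie near those of all genes.

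Missing the threshold does not show that a gene was equal in both populations. The 95% interval of the log2 ratio lay within 1 of 0, that is within a 2-fold difference either way, for 30 of the 40 genes, and reached beyond it for 10. The arrays of the populations did not overlap for 13 genes higher in Met-high cells, beside 35.7% of all genes, and for 8 genes higher in Met-low cells, beside 22.6%. A higher mean in Met-high cells was found for 26 of the 40 genes, beside 59.5% of all genes. After quantile normalization it was found for 19, beside 56.8%, and with the 75th percentile taken over detected probes for 17, beside 45.2%. That last scaling shifts every ratio by the same amount and moved the median of all genes from 0.10 to -0.05. The number of redox genes above the median of all genes, 20, therefore could not change under it. After quantile normalization that number was 15, with a median of -0.01 for the 40 genes beside 0.07 for all genes. With an array left out it ran from 14 to 24. The genes whose ratio turned from above to below 0 with either scaling had ratios of at most 0.14 before it, namely *Gclm*, *Txn2*, *Txnrd2*, *Srxn1*, *Prdx2*, *Prdx3*, *Prdx6*, *G6pdx* and *Fth1*, and none of them had a call. The median of the 40 genes was 0.23 without Met-low replicate 2 and 0.0084 without Met-low replicate 1.

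**Figure D1:**
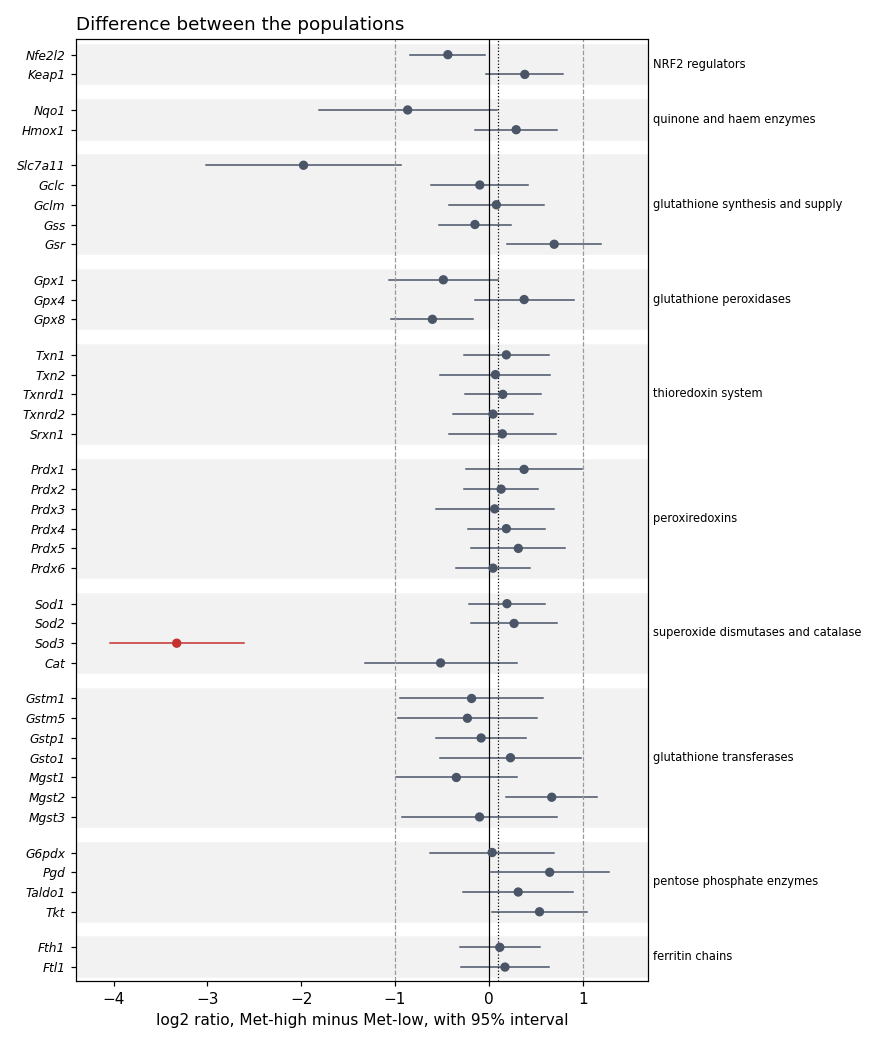
Log2 ratio (Met-high minus Met-low, horizontal axis) of the 40 redox genes, grouped by role, with the 95% interval of limma as a bar. The solid line is 0, the dotted line the median of all genes (0.10), the dashed lines a 2-fold difference, and red marks the gene with an adjusted p under 0.05; *Sod3* at -3.33 and *Slc7a11* at -1.98 stand left of the dashed line, and the other 38 points lie between the dashed lines.

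Superoxide dismutases turn superoxide into hydrogen peroxide, in the cytosol (*Sod1*), in mitochondria (*Sod2*) and, as a secreted enzyme bound to the cell surface and matrix, outside the cell (*Sod3*). The extracellular enzyme passed the test. The signal of *Sod3* (NM_011435) was 1.30 and 1.66 in Met-low samples, against -2.19 and -1.50 in Met-high samples. Both Met-low arrays were far above both Met-high arrays, and all 4 were well above background. *Sod3* was thus 10.0-fold higher in Met-low cells, with a log2 ratio of -3.33 (SE 0.28, limma adjusted p = 0.0084). Whichever array was left out, its ratio lay between -3.67 and -2.98, and the limma adjusted p exceeded 0.05 without a filter on dim probes, at 0.075. The methods' t-test, on the same values and adjusted in the same way, called 0 of the 40 genes, *Sod3* included. Of all 11955 genes that test called 1 higher in Met-high and 0 higher in Met-low cells. In RNA from whole cultures, fewer cells with the transcript and less of it per cell cannot be told apart, here and in the results that follow.

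The intracellular enzymes showed no such gap. *Sod1* was at 6.52 and 6.63 in Met-low and at 6.72 and 6.82 in Met-high cells, which gave a log2 ratio of 0.19 (95% interval -0.21 to 0.59). *Sod2* was at 4.36 and 4.64 in Met-low and at 4.69 and 4.84 in Met-high cells, with a ratio of 0.27 (95% interval -0.19 to 0.72). In both genes the Met-high arrays were slightly above the Met-low arrays, and neither passed the test. *Cat*, which breaks down hydrogen peroxide in peroxisomes, was at -1.36 and -0.70 in Met-low and at -1.86 and -1.23 in Met-high cells, with overlap and an adjusted p of 0.36. Of 7 markers of fibroblasts, which can also make *Sod3*, 4 (*Pdgfra*, *Dcn*, *Lum* and *Thy1*) were above background on no array. Only *Col1a2* was above background on all arrays, with a ratio of -1.10 (limma adjusted p = 0.031). The log2 of the summed signal of the 7 was -0.63 and -0.53 in Met-low and -1.44 and -1.62 in Met-high cells. Most of that sum was the signal of *Col1a2* on every array, so the sum and the ratio rest largely on the same gene. The part of such cells in the *Sod3* result was not tested.

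*Slc7a11* encodes the light chain of the cystine/glutamate exchanger, which brings in the cystine from which glutathione is made and which in mouse melanocytes is also needed for yellow pheomelanin. The signal of *Slc7a11* (NM_011990) was -2.22 and -1.67 in Met-low and -3.36 and -4.47 in Met-high cells. The Met-low arrays were both above the Met-high arrays, which lay more than 1 log2 unit apart from each other. The difference was 3.93-fold, with a log2 ratio of -1.98 (SE 0.41, limma adjusted p = 0.059), just outside the threshold. Its ratio was -2.25 and -1.70 without Met-low replicates 1 and 2, and -2.53 and -1.42 without Met-high replicates 1 and 2. After a normexp background correction it was -1.23, the smallest in size among the alternatives, where -2.53 was the largest. The limma adjusted p of *Slc7a11* fell under the threshold in some alternatives with all 4 arrays. It was 0.048 over genes detected on all arrays, 0.039 with a variance trend and 0.032 with the replicate block. Without a filter on dim probes it was 0.22, and in the other limma alternatives with all 4 arrays it lay between 0.056 and 0.070.

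The enzymes that build glutathione from the imported cystine were close to level. *Gclc* and *Gclm*, the catalytic and modifier subunits of the rate-limiting ligase, had log2 ratios of -0.10 (95% interval -0.61 to 0.42) and 0.08 (95% interval -0.43 to 0.59), each with overlap between the populations. *Gss*, which adds glycine in the last step, had a ratio of -0.15 (95% interval -0.53 to 0.24). *Gsr*, the reductase that returns oxidised glutathione to its reduced form at the cost of NADPH, stood on the other side. Its signal was 2.70 and 3.11 in Met-low and 3.57 and 3.63 in Met-high cells, without overlap. The log2 ratio of *Gsr* was 0.70 (SE 0.20, limma adjusted p = 0.11), the highest of the 40, and its second probe gave 0.68.

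Among the regulators, *Nfe2l2* was at 2.83 and 2.68 in Met-low and at 2.31 and 2.32 in Met-high cells, and *Keap1* was at 1.50 and 1.59 in Met-low and at 2.01 and 1.84 in Met-high cells. The arrays of the populations did not overlap in either gene, with *Nfe2l2* higher in Met-low and its inhibitor higher in Met-high cells. The log2 ratios were -0.44 (SE 0.16, limma adjusted p = 0.16) and 0.38 (SE 0.16, limma adjusted p = 0.21), so that neither passed the test. *Nqo1*, the quinone reductase often used as a readout of NRF2, was at -1.89 and -0.96 in Met-low and at -2.60 and -1.99 in Met-high cells. Its ratio of -0.87 (SE 0.38, limma adjusted p = 0.22) had a 95% interval from -1.82 to 0.08 and ran from -1.33 without Met-low replicate 1 to -0.40 without Met-low replicate 2. *Hmox1*, the inducible haem oxygenase, had a ratio of 0.29 (95% interval -0.15 to 0.73).

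Genes with and without a match to the core had similar medians. The 10 genes with a core of the antioxidant response element in their start region had log2 ratios between -0.44 and 0.65 with a median of 0.11. The 25 measured genes with a region but without the core had a median of 0.12. Elements outside the 300 bases searched would be missed, so genes without a match can still be targets of NRF2. The split therefore does not separate its targets from other genes. *Prdx1*, *Txnrd1*, *G6pdx* and *Gclm*, whose matches are printed above, had ratios of 0.37, 0.15, 0.03 and 0.08. None of these 4 passed the test, and the arrays of the populations overlapped in all but *Txnrd1*.

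**Figure D2:**
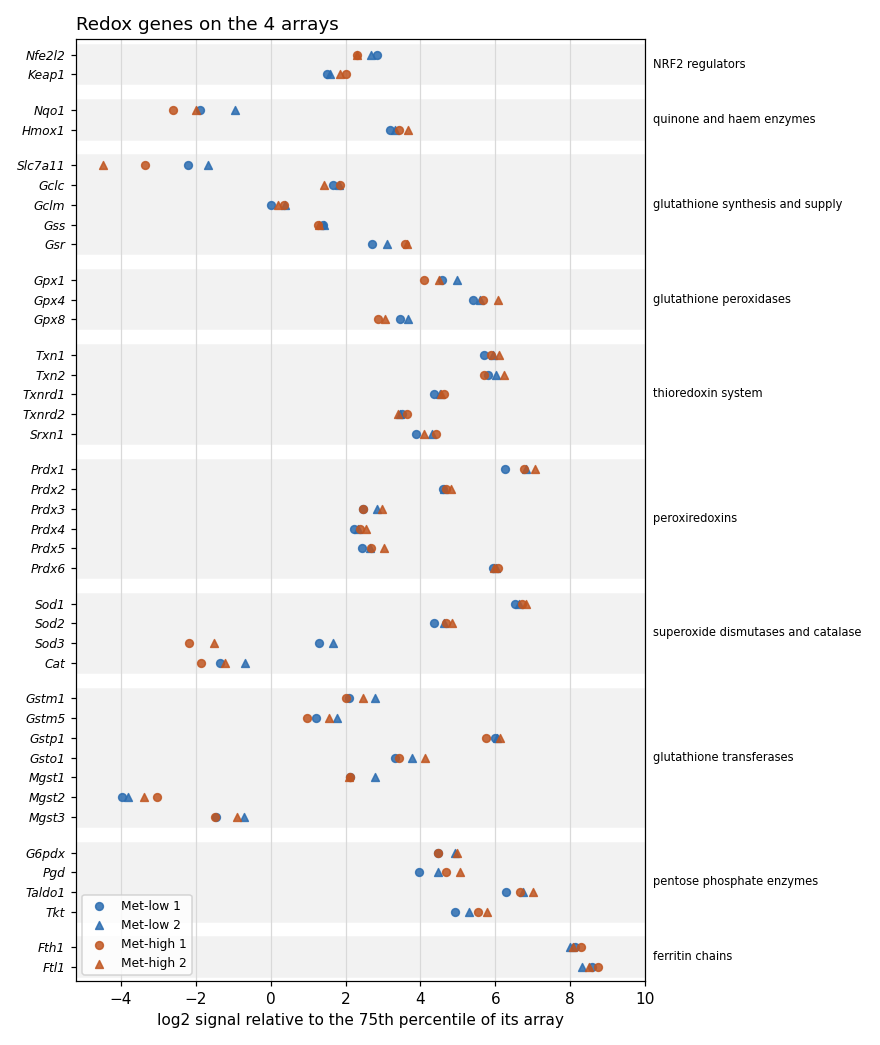
Log2 signal of each of the 40 redox genes on the 4 arrays (horizontal axis, relative to the 75th percentile of the array), with Met-low in blue, Met-high in orange, replicate 1 as circles and replicate 2 as triangles. Levels of different genes come from different probes and are not comparable; the blue and orange points are apart by more than 2 units in *Sod3* and intermingle or lie close together in most other genes.

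Glutathione peroxidases reduce hydrogen peroxide and lipid peroxides. *Gpx8*, a peroxidase of the endoplasmic reticulum, was at 3.46 and 3.67 in Met-low and at 2.88 and 3.04 in Met-high cells, which gave a log2 ratio of -0.60 (SE 0.17, limma adjusted p = 0.11). *Gpx1*, the common cytosolic form, was at 4.57 and 4.98 in Met-low and at 4.09 and 4.49 in Met-high cells, a ratio of -0.49 (adjusted p = 0.25). *Gpx4*, which protects membrane lipids and holds off ferroptosis, was at 5.39 and 5.60 in Met-low and at 5.66 and 6.08 in Met-high cells, a ratio of 0.38 (adjusted p = 0.31). Thus *Gpx1* and *Gpx8* lay higher in Met-low and *Gpx4* higher in Met-high cells, without overlap between the populations in any of the 3 and without a call. Of all genes, 22.6% were without overlap and higher in Met-low cells, and 35.7% without overlap and higher in Met-high cells. *Gpx7* was above background on no array, with signals from -7.54 to -6.92, and is given no ratio.

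The thioredoxin and peroxiredoxin genes lay close to the median of all genes. Thioredoxins (*Txn1*, *Txn2*) pass electrons from the reductases (*Txnrd1*, *Txnrd2*) to the peroxiredoxins, which sulfiredoxin (*Srxn1*) repairs when they are over-oxidised. The 5 genes of the thioredoxin system had ratios between 0.04 and 0.19, with a median of 0.14, which was -0.01 after quantile normalization and -0.0034 with the percentile of detected probes. The 6 peroxiredoxins had ratios between 0.04 and 0.37, with a median of 0.16, and 3 of the 6 were above 0 under either of those scalings. *Prdx1* had the highest of these, at 6.26 and 6.82 in Met-low and 6.77 and 7.05 in Met-high cells, with overlap between the populations. Its adjusted p was 0.38, and the lowest of the 11 was 0.37, in *Prdx5*.

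Glutathione transferases attach glutathione to electrophiles and drugs. *Mgst2*, a membrane-bound transferase that also makes leukotriene C4 in other cells, was at -3.98 and -3.80 in Met-low and at -3.05 and -3.39 in Met-high cells. The Met-high arrays were both the brighter ones. Its log2 ratio was 0.67 (SE 0.19, limma adjusted p = 0.11), without overlap. *Mgst2* was dim, at percentile 10.4 of the levels of all genes. Its ratio ran from 0.29 to 0.84 over the alternatives, and from 0.50 to 0.84 with an array left out. The ratios of the other 6 measured transferases, *Gstm1*, *Gstm5*, *Gstp1*, *Gsto1*, *Mgst1* and *Mgst3*, lay between -0.35 and 0.23, with adjusted p between 0.43 and 0.87. In 5 of them the populations overlapped, and in *Mgst1* the gap rested on Met-low replicate 2, at 2.79 against 2.11 in replicate 1, with 2.11 and 2.10 in Met-high cells. *Gsta4* was above background on no array, with signals from -7.26 to -6.53.

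The pentose phosphate pathway makes NADPH in its oxidative arm (*G6pdx*, *Pgd*) and interconverts sugars in its other arm (*Taldo1*, *Tkt*). *Pgd* was at 3.97 and 4.47 in Met-low and at 4.67 and 5.07 in Met-high cells, which gave a log2 ratio of 0.65 (SE 0.25, limma adjusted p = 0.18). *Tkt* was at 4.93 and 5.30 in Met-low and at 5.55 and 5.77 in Met-high cells, a ratio of 0.54 (SE 0.20, limma adjusted p = 0.17). Both Met-high arrays were above both Met-low arrays in these genes. *G6pdx*, the entry enzyme, was at 4.46 and 4.91 in Met-low and at 4.46 and 4.98 in Met-high cells, nearly the same pair of values, and *Taldo1* had a ratio of 0.31 with overlap. The median of the 4 genes was 0.43, and between 0.28 and 0.43 under the alternatives of background and scaling, with *G6pdx* below 0 in 3 of these. It was 0.22 and 0.63 without Met-low replicates 1 and 2, and 0.56 and 0.29 without Met-high replicates 1 and 2. The ferritin chains *Fth1* and *Ftl1*, which store iron and so keep it from producing radicals, had ratios of 0.12 and 0.17 with overlap, and *Fth1* fell below 0 with the percentile of detected probes.

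A second probe was at hand for 10 of the 40 genes, and in 9 of these 10 every probe had the same sign, the exception being *Mgst3* at -0.10 and 0.05. The widest gap between probes of 1 gene was 0.31, in *Ftl1*. Overlap is stated in these results for the brightest probe. In *Prdx1*, *Prdx6*, *Cat*, *Gstp1* and *Ftl1* the populations overlapped on that probe but not on a further one. The ratios of these further probes were 0.45, 0.08, -0.31, -0.17 and 0.48. In *Hmox1*, *Gsr* and *Mgst1* no probe showed overlap. Several of these genes have close relatives or processed copies, among them *Gstm1* with *Gstm5* and the ferritin chains, and a probe may capture RNA of both. How far this touched the values was not tested.

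The replicates themselves moved these genes. In Met-low cells, 36 of the 40 genes (90.0%) were higher in replicate 2 than in replicate 1, against 51.8% of all genes, with a median gap of 0.26 on the log2 scale against 0.02. In Met-high cells, 28 of the 40 (70.0%) were higher in replicate 2, against 54.7% of all genes, with a median gap of 0.19 against 0.04. Both held for 27 of the 40 genes (67.5%), against 40.5% of all genes. The gap was wide in *Nqo1* (0.94 in the Met-low pair and 0.61 in the Met-high pair), *Mgst3* (0.75 and 0.58) and *Gstm1* (0.71 and 0.46). *Slc7a11* went both ways, with replicate 2 higher by 0.55 in Met-low and lower by 1.11 in Met-high cells. A fit with the replicate number as a block called 4 of the 40 genes higher in Met-high and 7 higher in Met-low cells. Without the block there were 0 and 1. Of all 11955 genes the block fit called 1967 and 1578, against 233 and 457 without it. The labels name no sort or day shared by equal replicate numbers, and the cause of the gap was not tested.

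**Figure D3:**
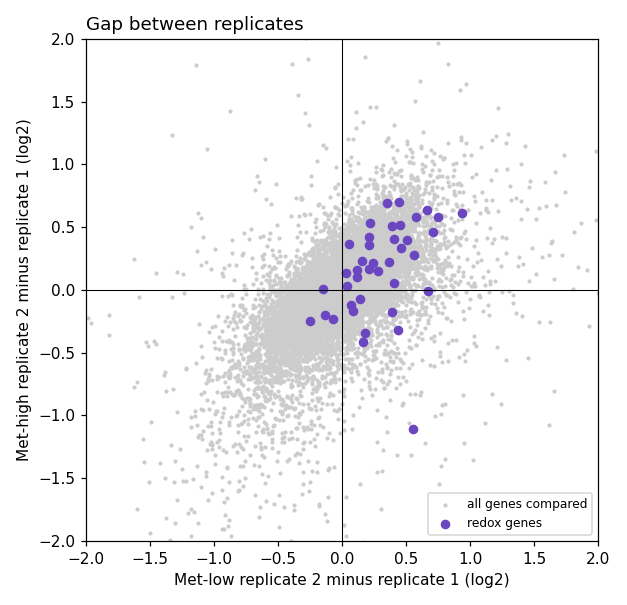
Gap between replicates on the log2 scale, replicate 2 minus replicate 1, in Met-low (horizontal axis) and Met-high cells (vertical axis), for all 11955 genes in grey and the 40 redox genes in purple. Purple points sit mostly right of the vertical line (36 of 40) and above the horizontal line (28 of 40); 79 grey points lie outside the axes.

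Other genes of these pathways were taken from a list of 111, with partners of NRF2, further peroxidases and transferases, glutaredoxins, other NADPH sources and iron genes, of which 100 passed the filter. Their median log2 ratio was 0.03, beside 0.10 for all genes. Limma called 3 of the 100 higher in Met-low cells, where 3.82% of all genes were called, and 1 higher in Met-high cells, where 1.95% were. Past 2-fold were 3 and 2 of them, beside 5.29% and 2.43%.

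The largest difference of the list was in *Aldh1l1* (NM_027406), the cytosolic formyltetrahydrofolate dehydrogenase, which makes NADPH while it releases a folate-bound carbon. It was at 0.72 and 0.82 in Met-low and at -4.02 and -3.17 in Met-high cells, 20.5-fold lower in the latter with a log2 ratio of -4.36 (SE 0.30, limma adjusted p = 0.0066). *Aldh1l2*, its mitochondrial counterpart, named here after its values were seen, was at 0.94 and 0.98 in Met-low and at -0.18 and 0.19 in Met-high cells, a ratio of -0.96 (adjusted p = 0.053). The populations were apart in both genes, by far more in the cytosolic one.

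*Txnip*, which binds and inhibits thioredoxin and curbs glucose uptake, fell from -0.24 and -0.57 in Met-low to -1.87 and -2.33 in Met-high cells. Its log2 ratio was -1.70 (SE 0.23, limma adjusted p = 0.022), and a second, dimmer probe gave -0.87. The mean of both probes had an adjusted p of 0.066. *Gsto2*, a transferase that also recycles vitamin C, fell from -1.50 and -1.67 to -3.28 and -2.90, a ratio of -1.51 (SE 0.20, limma adjusted p = 0.021). Its relative *Gsto1*, by contrast, had a ratio of 0.23 with overlap between the populations.

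On the Met-high side, *Nxn* (nucleoredoxin, a thioredoxin relative that acts in Wnt signalling) rose from 3.12 and 2.91 to 4.08 and 3.91, a log2 ratio of 0.98 (SE 0.17, limma adjusted p = 0.041). Its call was lost with any array left out, where its ratio lay between 0.87 and 1.08. The calls of *Aldh1l1*, *Txnip*, *Gsto2* and *Nxn* were all lost without a filter on dim probes, at 0.075, 0.12, 0.12 and 0.19, and that of *Nxn* also after quantile normalization (0.078) and with the percentile of detected probes (0.073). *Ggt1*, which cleaves glutathione outside the cell, and *Blvrb*, a biliverdin reductase, exceeded a 2-fold difference toward Met-high cells without a call, at ratios of 1.06 (adjusted p = 0.083) and 1.02 (adjusted p = 0.25). The ratio of *Ggt1* ran from 0.73 (adjusted p = 0.14) without Met-high replicate 1 to 1.39 (adjusted p = 0.016) without Met-high replicate 2. That of *Blvrb* was 0.36 (adjusted p = 0.65) without Met-low replicate 1, 0.66 (adjusted p = 0.50) without Met-high replicate 2 and 1.67 (adjusted p = 0.026) without Met-low replicate 2.

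**Figure D4:**
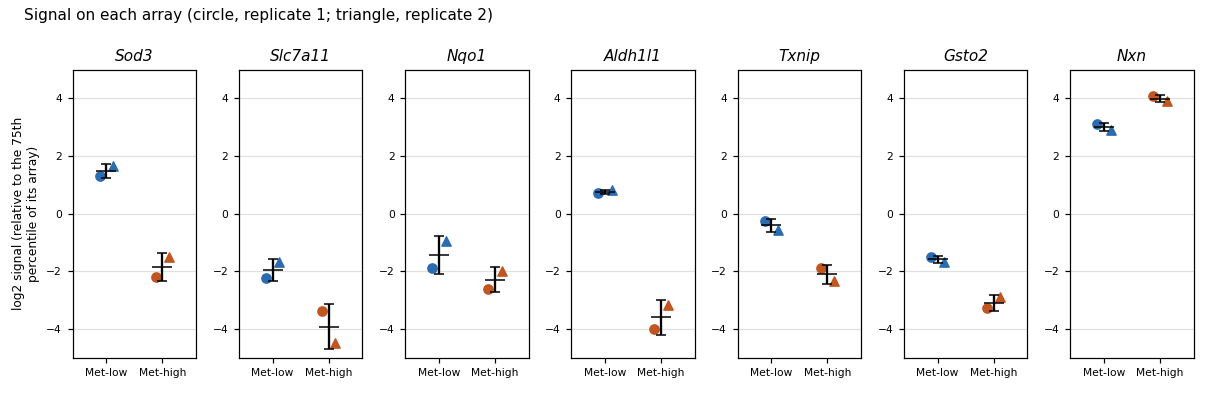
Log2 signal (vertical axis, relative to the 75th percentile of the array) on each array for *Sod3*, *Slc7a11* and *Nqo1* and for the 4 called genes of the further list, with circles for replicate 1, triangles for replicate 2, horizontal bars for the mean and error bars for the SD (n = 2). The populations are apart in every panel, by 4.36 in *Aldh1l1* and 3.33 in *Sod3*, and closest in *Nqo1*, where the SD is 0.66 for the Met-low and 0.43 for the Met-high samples.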

How the data were processed

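Per the labels and file headers, the authors deposited Agilent Feature Extraction output of 4 one-colour arrays, with background-corrected Cy3 intensity per spot on a linear scale (header version 11.0.1.1, submitters' processing notes 10.7.3.1). They also deposited log2 values, scaled to the 75th percentile per array and centred per probe, and 93.1% to 100% of these lay within 0.01 of the same quantity computed here.

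Intensities had a floor of 0.01 (reached by 0 spots), and the log2 value of the 75th percentile of an array was subtracted from each. Flagged spots (207 to 232 an array) were left out and spots of a probe averaged. A probe counted as well above background where at least 50% of its spots were. Of 39429 probes, 27421 matched a symbol of GRCm38.p6 by accession, and the brightest probe of a gene was used. The contrast of populations was fitted by lmFit and eBayes in limma 3.58.1 (R 4.3.3), 2 arrays against 2, two-sided, with Benjamini-Hochberg adjustment over 11955 genes, a threshold of 0.05, and 95% intervals from the moderated statistic. A permutation of 2 against 2 arrays has 3 splits and was not used. Precision is limited by there being 2 arrays for each population. The sources call the samples independently prepared without naming separate sorts, so p-values measure the spread between these samples.

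The genes, lists and tests were chosen with earlier results of these data known. All 42 redox genes are named, and of the further list those past the adjusted p or 2-fold, besides *Aldh1l2*, which was named after its value was seen. Alternatives were normexp (offset 50), quantile normalization, the percentile over detected probes, no or a stricter filter, flagged spots included, averaged probes per gene, the authors' log2 values, each array left out, the replicate number as a block, a variance trend, the methods' t-test and a 2-fold rule. Figures were drawn with matplotlib 3.10.9 in Python 3.11.15.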

Additional observations from a re-analysis of the deposited data

How the results depend on the processing

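For the 40 redox genes, each under 14 alternatives, the value stayed on its side of the threshold in 544 cases, passed it newly in 15 and lost it in 1. Only genes without a call changed sign, 9 of the 40 with the percentile of detected probes, 7 after quantile normalization, 2 with normexp and up to 8 with an array left out.

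The number of redox genes called higher in Met-low cells, 1 in the fit reported, was 2 over genes detected on all arrays, with the variance trend or with the 2-fold rule, 0 without a filter and with the methods' t-test after Benjamini-Hochberg adjustment, 4 with that t-test at an unadjusted 0.05, and 1 to 2 with an array left out. The median of the redox genes was -0.013 after quantile normalization, -0.049 with the percentile of detected probes and 0.0084 to 0.23 with an array left out.

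In the further list, calls higher in Met-high cells, 1 in the fit reported, were 2 with normexp or the 2-fold rule, 0 after quantile normalization, with the percentile of detected probes, without a filter or with the adjusted t-test, 4 with the trend, 10 with the unadjusted t-test and 0 to 2 with an array left out. Calls higher in Met-low cells, 3 in the fit reported, were 6 with the percentile of detected probes or the trend, 0 without a filter or with the adjusted t-test and 9 with the unadjusted t-test.

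Over all genes, calls higher in Met-high and Met-low cells were 233 and 457, of which 66.2% were higher in Met-low cells. The percentile of detected probes gave 140 on the Met-high side and a Met-low share of 81.0%. Without a filter there were 0 and 7, with the adjusted t-test 1 and 0, with the unadjusted t-test 1266 and 945, and 392 on the Met-high side with the trend. With an array left out there were 155 to 265 and 437 to 605.

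The replicate numbers of the labels name no shared sort or day. Deviations of same-numbered arrays from their group means had a correlation of 0.54 over 11944 genes. With the replicate block, 1967 and 1578 of all genes were called higher in Met-high and Met-low cells, 4 and 7 of the redox genes (*Gsr*, *Mgst2*, *Pgd* and *Tkt*, and *Sod3*, *Slc7a11*, *Nfe2l2*, *Nqo1*, *Gpx1*, *Gpx8* and *Cat*), and 19 and 12 of the further list. The cause of these differences was not tested.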
